A study of Homo sapiens with 4 samples.

Results

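The CXCL12 chemokine axis was followed as its ligand gene, CXCL12, its signalling receptor gene, CXCR4, and the gene of its scavenging receptor, ACKR3. These 3 genes were chosen by name for their place in the axis, with earlier results of these data known, from 43760 genes and transcripts tested, and all 3 passed the filter on low counts. The files name transcripts but not genes, and the transcripts of each member were found through a gene table of the study, by position, mean count and log2 fold change. The direction of a member, or of any other gene identified in this way, is therefore not independent of that table. CXCL12 is a secreted chemokine that cells follow as an attractant. CXCR4 is a G protein-coupled receptor that turns its binding into directed movement, and ACKR3 binds the same ligand but mainly internalises and degrades it, so that it shapes the gradient. In the developing cerebellum CXCL12 from the meninges holds granule cell progenitors, which carry CXCR4, at the outer surface until they leave the cell cycle.

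The cells derived from RUES2, a human embryonic stem cell line, and carried ATOH1-EGFP-L10a, a ribosomal protein tagged with EGFP and driven by an ATOH1 enhancer and a minimal promoter in a lentiviral vector. All cultures were patterned towards hindbrain with SB431542 and LDN-193189, CHIR99021, FGF2, BDNF and BMP7 under puromycin, and were collected at day in vitro (DIV) 28. Translating ribosome affinity purification (TRAP) pulled down ribosome-bound mRNA of the cells with an active enhancer (IP, 3 libraries from separate differentiations), and 1 library held the input. The methods select clonal transgenic lines, and the clone behind each library is not given in the sources used here. The IP was aimed at cells in which this transgene was active, and no library measured how much RNA of other cells came with it. With 1 input library the spread of the input is unknown. The deposit disagrees on which library is the input, since the labels give that role to the library used here as IP replicate 1, while the tags in the file names give it to another. The file tags were followed, because the gene values of the study could be rebuilt for 202 of 350 genes with the tagged library as input and for 1, 0 and 0 genes with IP replicates 1, 2 and 3 in its place. The tag of the input also differs from that of all IPs, so a batch and the group cannot be told apart.

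Total estimated counts were 34603230 to 37719839 in the IPs and 41173019 in the input. ATOH1 was taken as the reference gene of the IP. Like the members it was identified through the log2 fold change of the study's table, so its rise is no independent check. CPM is the count scaled to library size. ATOH1 was at 26.1, 36.0 and 33.2 CPM in IP replicates 1, 2 and 3. In the input it was at 0.173 CPM, or 7 reads. On the log2 scale it was higher by 7.49 ± 0.45 (SE), with an adjusted p of 0.0197 in edgeR's quasi-likelihood fit. Of the 12 marker genes of granule cell progenitors and the rhombic lip, 8 could be identified in the files. Of these markers 7 were higher in the IPs, beside 29.7% of all identified genes, each of which the study had called. The name "migrating progenitors" rests on such markers only, as no movement was measured in these libraries. In these bulk libraries, fewer cells of a type and less RNA per cell cannot be told apart.

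In the IPs all 3 members stood above the input. On the log2 scale CXCL12 rose by 2.70 ± 0.17 (SE, adjusted p = 0.0208), CXCR4 by 3.09 ± 0.29 (SE, adjusted p = 0.0298) and ACKR3 by 1.68 ± 0.16 (SE, adjusted p = 0.0313), with edgeR's quasi-likelihood test and adjustment over every gene and transcript tested. The test called 1021 of 43760 genes and transcripts higher in the IPs, or 2.33%, and 656 lower, or 1.5%. The spread behind these p-values is that of the 3 IPs. Each call was lost when any 1 of the IPs was left out, with adjusted p of 0.107 to 0.194, while the log2 fold changes stayed at 2.63 to 2.74 for CXCL12, 2.99 to 3.15 for CXCR4 and 1.64 to 1.73 for ACKR3. In a limma-voom fit the log2 fold changes were 2.70, 3.08 and 1.68 and missed the threshold, with adjusted p of 0.0686 to 0.0693. With the library that the labels call input, the log2 fold changes turned to -0.37, -0.48 and -0.24, each with an adjusted p of 1.00.

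CXCL12, the ligand, lies on chromosome 10 at 44865613 to 44881941 on the minus strand (GRCh37). Its estimated counts were 3566, 4155 and 3769 reads in IP replicates 1, 2 and 3 and 652 reads in the input. Per length and library, these were 66.2, 75.8 and 64.9 TPM, the abundance scaled by transcript length, a mean of 69.0 ± 5.95 (SD, n = 3), against 11.6 TPM in the input. The lowest IP was thus well above the input, and the 3 IPs lay close together. The ratio to the input was 5.70, 6.53 and 5.60 in IP replicates 1, 2 and 3.

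CXCR4, the receptor through which CXCL12 signals, lies on chromosome 2 at 136871919 to 136876747 on the minus strand (GRCh37). Its reads numbered 968, 1121 and 910 for the IPs and 130 for the input. In TPM it was at 22.4, 24.4 and 18.7, a mean of 21.8 ± 2.89 (SD, n = 3), against 3.23 in the input. CXCR4 was the lowest member in all 4 libraries and the one whose IPs differed most from each other relative to their mean, with a coefficient of variation of 13.2% against 8.63% for CXCL12 and 4.42% for ACKR3.

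ACKR3, the scavenging receptor, lies on chromosome 2 at 237476430 to 237490997 on the plus strand (GRCh37). Its reads numbered 2104, 2409 and 2367 for the IPs and 790 for the input. In TPM it was at 37.5, 40.4 and 37.5, a mean of 38.4 ± 1.70 (SD, n = 3), against 15.1 in the input. ACKR3 was the highest member in the input and stood between the other members in the IPs.

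**Figure D1:**
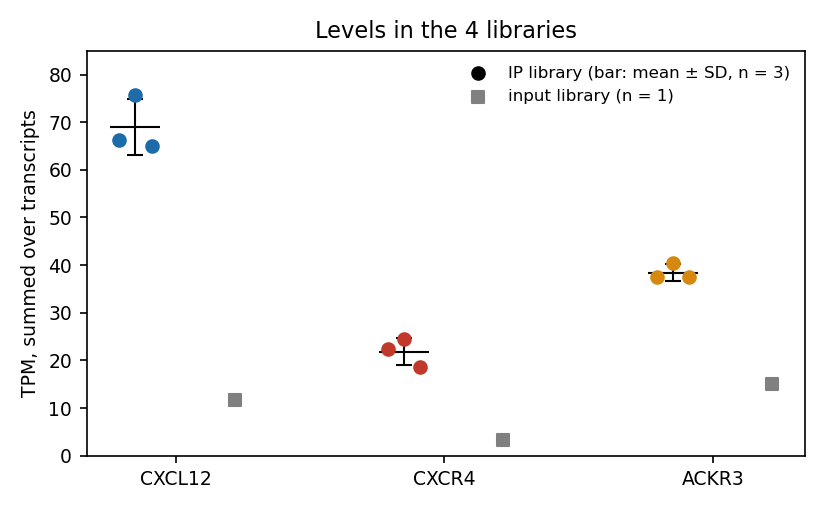
Levels of CXCL12, CXCR4 and ACKR3 as TPM summed over their transcripts (y axis). Each circle is 1 IP library, the bars give the mean and SD of the 3 IPs and each square is the single input. CXCL12 was highest in the IPs at 64.9 to 75.8 TPM, and ACKR3 was highest in the input at 15.1 TPM.

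The order of levels was CXCL12, ACKR3 and CXCR4 in each of the 3 IPs, and the ranges of the members did not overlap between IPs. In the input the order of the first pair was reversed, with ACKR3 above CXCL12. The read counts of the input, 790 for ACKR3 with a 95% Poisson interval of 736 to 847 and 652 for CXCL12 with one of 603 to 704, did not overlap, although these counts are not scaled by length. Such intervals cover counting error only, as no molecular identifiers tell copies of a molecule apart. An exact permutation test of 3 libraries against 1 cannot go below p = 0.25, so no test was made of the ratios between members.

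Relative to the scavenger, the ligand was higher in the IPs. The TPM ratio of CXCL12 to ACKR3 was 1.77, 1.88 and 1.73 in IP replicates 1, 2 and 3, a mean of 1.79 ± 0.0749 (SD, n = 3), against 0.768 in the input. The signalling receptor also gained on the scavenger, as the ratio of ACKR3 to CXCR4 was 1.67, 1.66 and 2.00 in the IPs, a mean of 1.78 ± 0.195 (SD, n = 3), against 4.68 in the input. CXCR4 thus made up 37.4%, 37.7% and 33.3% of the summed TPM of both receptors in the IPs and 17.6% in the input. In contrast, the ratio of CXCL12 to CXCR4 was 2.96, 3.11 and 3.47 in IP replicates 1, 2 and 3 and 3.59 for the input. In TPM the gap between the highest IP and the input was thus smaller than the range of the IPs. The unit matters here, as TPM rests on how reads are divided among transcripts. In CPM the ratios of the single IPs to the input were 7.66 to 9.45 for CXCR4 and 6.18 to 6.99 for CXCL12, without overlap.

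**Figure D2:**
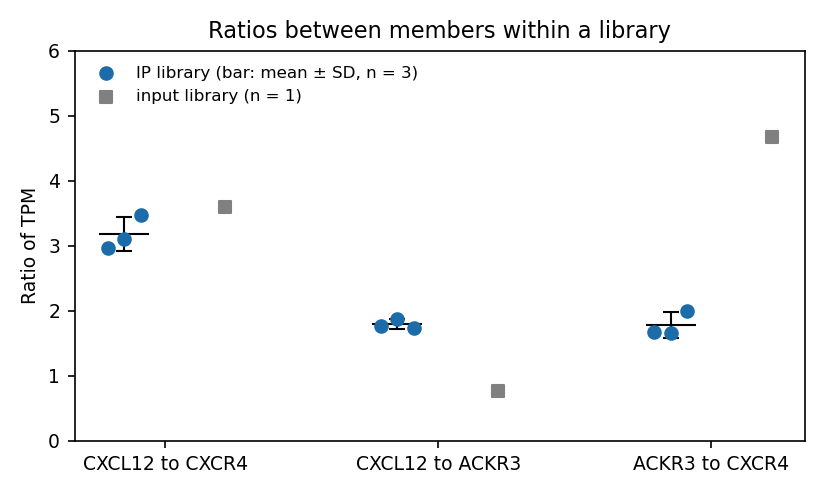
Ratios of TPM between members within each library (y axis), with the 3 IPs as circles, their mean and SD as bars and the single input as a square. The ratio of CXCL12 to ACKR3 was 1.73 to 1.88 in the IPs and 0.768 in the input, the ratio of ACKR3 to CXCR4 was 1.66 to 2.00 and 4.68, and that of CXCL12 to CXCR4 was 2.96 to 3.47 and 3.59.

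The changes of the members were ordered as CXCR4, CXCL12 and ACKR3 on the CPM scale after TMM scaling. The ratio of the mean of the IPs to the input was 8.51 for CXCR4, 6.50 for CXCL12 and 3.21 for ACKR3. With the 95% Poisson interval of the input reads alone, these ratios ran from 7.17 to 10.2, from 6.02 to 7.03 and from 2.99 to 3.45. The CPM ratios of the single IPs were 7.66 to 9.45 for CXCR4, 6.18 to 6.99 for CXCL12 and 3.01 to 3.34 for ACKR3, with no overlap. All of them share the 1 input value. In TPM the ratios of the means were smaller, at 6.76, 5.94 and 2.55, and those of the single IPs overlapped between CXCR4, at 5.80 to 7.56, and CXCL12, at 5.60 to 6.53, with ACKR3 below both at 2.48 to 2.67.

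The rise of the members can be read against 2 backgrounds. Among all genes and transcripts tested, 28.2% had all 3 IPs above the input in CPM, so that the same side in every IP is common here. Among the 1659 genes that could be identified in the files, 492 passed the test as higher, or 29.7%, and 451 as lower, or 27.2%, since each of these genes had been called by the study. The log2 fold change of CXCR4 lay above that of 93.2% of the identified genes, that of CXCL12 above 91.5% and that of ACKR3 above 81.3%. The median log2 fold change was 0.10 for everything tested and 0.80 for the identified genes.

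**Figure D3:**
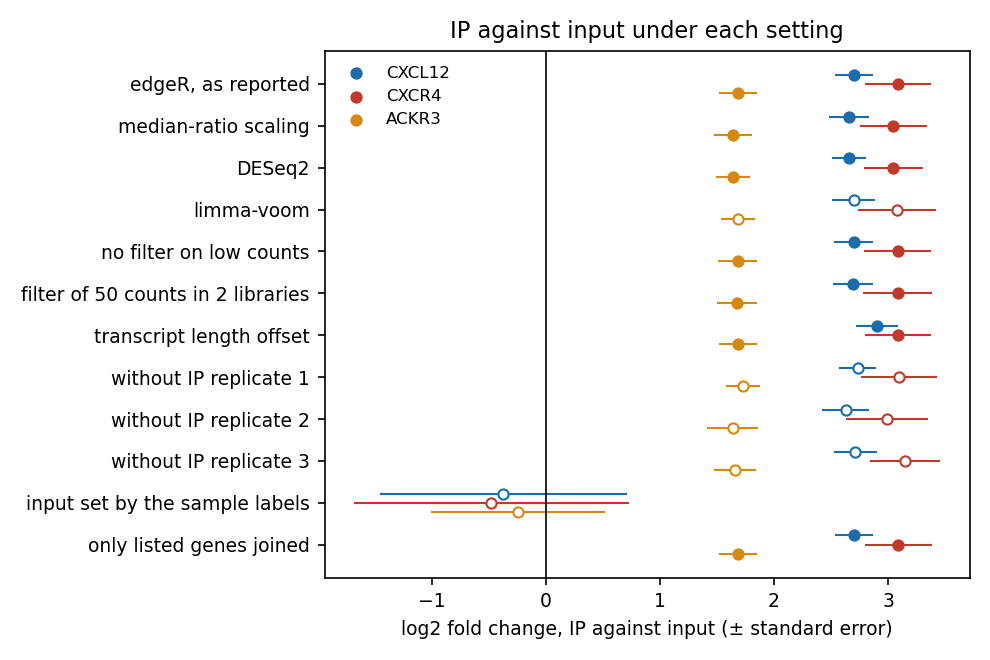
Log2 fold change of each member, IP against input, with its standard error (x axis), under the reported fit and each other setting (y axis). Filled circles passed an adjusted p of 0.05. The 3 values stayed positive in every setting that took the library with the tag as input, and lay between -0.48 and -0.24 with the labels' input.

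The members differ in how many transcripts carried their reads. A run of 3 transcripts was tied to CXCR4. Of these uc002tuz.3, of 1674 bases, held 99.9% ± 0.247 (SD, n = 3) of the CXCR4 TPM in the IPs and all in the input. For ACKR3, uc002vwd.3, of 2100 bases, held 99.6% ± 0.679 (SD, n = 3) in the IPs and all in the input. CXCL12 is known to be spliced into several forms that differ at the end of the protein, and its reads were spread over 5 transcripts. How Salmon divides reads shared by such transcripts is an estimate, and the files do not name the forms.

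One CXCL12 transcript, uc021ppm.1 of 1202 bases, differed most between IP and input. It had 25.9, 30.2 and 25.7 TPM in IP replicates 1, 2 and 3 and 0.957 TPM in the input, so that the mean of the IPs was 28.5 times as high. Its share of CXCL12 TPM was 39.1%, 39.8% and 39.6% across the IPs against 8.25% for the input. The input value rests on 26 of 652 reads, or 3.95% of the reads with an exact binomial 95% interval of 2.62% to 5.79%, against 21.8% ± 0.740 (SD, n = 3) of the reads in the IPs.

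The remaining CXCL12 transcripts had lower ratios. The TPM ratio of the mean of the IPs to the input was 5.60 for uc031put.1, of 3139 bases, and 3.83 for uc001jbi.3, of 1933 bases. For uc001jbf.4, of 3549 bases, the TPM values were 3.34, 1.35 and 0.983 in IP replicates 1, 2 and 3 against 0.992 for the input, so that 1 IP did not exceed the input. Its ratio of 1.90 was 1.17 without IP replicate 1. The shortest, uc001jbh.3 of 524 bases, had 5 reads in the input and at most 3.28 in an IP, or 0, 0.370 and 0.117 TPM in IP replicates 1, 2 and 3 against 0.656 TPM. In the input uc001jbi.3 was the leading form at 52.2% of CXCL12 TPM, against 33.5% ± 1.92 (SD, n = 3) in the IPs. The share of uc031put.1 was 23.9% ± 0.476 (SD, n = 3) in the IPs and 25.4% in the input by TPM, but 40.1% and 36.9% by reads, so that its direction depended on the unit.

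**Figure D4:**
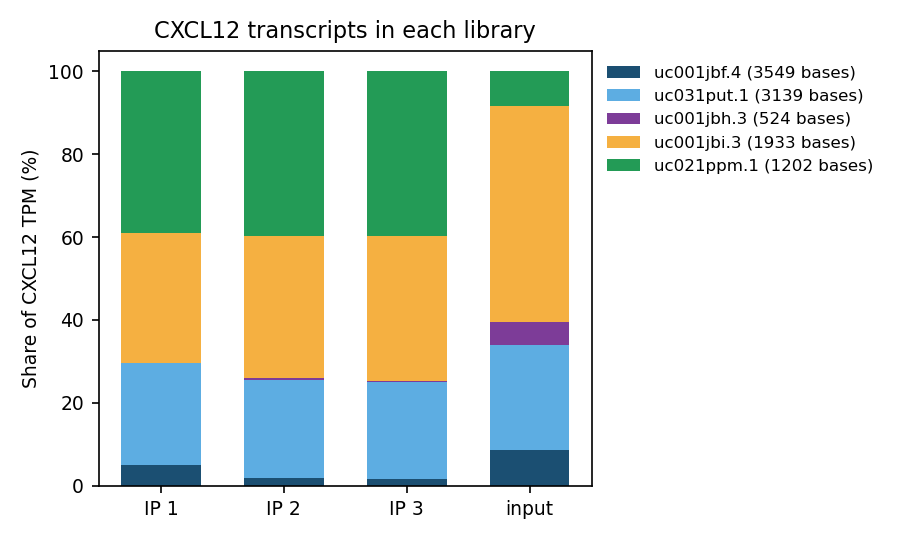
Share of CXCL12 TPM (y axis, %) held by each of its 5 transcripts in the 3 IPs and the input. The share of uc021ppm.1 was 39.1% to 39.8% in the IPs and 8.25% in the input.

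The promoters of CXCL12 and CXCR4 are shown, as the members for which the reference used here lists a promoter. Each is the stretch of 250 bases that ends just before the outermost transcription start in RefSeq (GRCh38.p14), printed on the strand of the gene, with matches to TATAAA and to GGGCGG on either strand in capitals. CXCL12 lies at chr10:44385098-44385347 and CXCR4 at chr2:136118150-136118399, both on the minus strand.
CXCL12: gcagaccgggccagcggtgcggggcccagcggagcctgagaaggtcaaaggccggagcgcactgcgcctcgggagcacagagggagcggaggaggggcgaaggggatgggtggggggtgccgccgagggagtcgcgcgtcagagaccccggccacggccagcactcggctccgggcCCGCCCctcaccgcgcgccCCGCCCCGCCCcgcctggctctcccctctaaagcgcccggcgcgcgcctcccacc
CXCR4: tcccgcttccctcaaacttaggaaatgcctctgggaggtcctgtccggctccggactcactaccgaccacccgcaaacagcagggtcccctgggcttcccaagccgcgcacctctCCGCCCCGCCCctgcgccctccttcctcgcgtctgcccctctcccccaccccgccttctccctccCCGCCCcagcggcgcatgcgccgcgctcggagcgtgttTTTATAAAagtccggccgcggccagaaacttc
Both promoters held 3 matches to GGGCGG, the GC box, which 42.6% of 34788 promoters of this length hold. CXCR4 also held TATAAA, the TATA box, from 32 bases before the start, where matches on both strands overlap, and CXCL12 did not. TATAAA is in 10.8% of the promoters. Neither held the E-box letters CAGCTG or CAGATG, found in 14% and 12.2% of promoters, or the core of the hypoxia element, ACGTG, found in 18.5%. These are matches of letters in this window only. GC content was 78% for CXCL12 and 68% for CXCR4, against a median of 58%. No such sequence was printed for ACKR3.

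Other genes of the axis were taken from lists of ligands, partners, proteases and signalling genes, and only members that could be identified in the files are counted. Of all listed genes, the markers included, 22 rose and 12 fell. Among those that rose were 7 of 8 identified progenitor and rhombic lip markers and 7 of 8 young neuron markers. Of all identified genes 29.7% rose and 27.2% fell, to be set beside the counts by list below. No listed gene passed in limma-voom, in any fit that dropped an IP, or under the labels' input, where most directions turned. Of 26 other chemokine ligands, 3 were identified. Of these 1 was lower in the IPs and none higher, beside the same 27.2% and 29.7% of all identified genes. CXCL14, a chemokine reported to bind CXCR4, was at 7.45, 5.74 and 8.71 CPM in IP replicates 1, 2 and 3 and at 53.2 CPM in the input library, and fell by 2.86 ± 0.29 on the log2 scale (SE, adjusted p = 0.0330 by edgeR). Its direction was opposite to that of CXCL12. CCL2, which attracts monocytes, and CX3CL1, which is made by neurons, did not pass the test, with log2 fold changes of -1.20 and -1.45 and adjusted p of 0.0848 and 0.0637. None of the 21 other chemokine receptors was identified, and they were not analysed here.

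Of 13 other ligands and partners of both receptors, 3 were identified. CD164, a sialomucin that associates with CXCR4, fell from 767 CPM in the input to 294 ± 37.5 CPM in the IPs (SD, n = 3), a log2 fold change of -1.38 (adjusted p = 0.0391 by edgeR). CD4, the partner of CXCR4 in viral entry, had a log2 fold change of -1.58 (adjusted p = 0.0518) and RAMP1, an accessory protein of the receptor for calcitonin gene-related peptide, one of 2.02 (adjusted p = 0.0748), and neither passed.

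MMP9, MMP14 and MMP2, proteases that cleave CXCL12, were lower in the IPs. Of 19 listed proteases and matrix binders, 5 were identified, of which 3 fell and none rose, beside 27.2% lower and 29.7% higher of all identified genes, with a median log2 fold change of -1.15. MMP9, a gelatinase that removes the receptor-binding end of CXCL12, was at 1.34, 0.921 and 0.649 CPM in IP replicates 1, 2 and 3 and at 265 CPM in the input, and fell by 8.09 ± 0.35 on the log2 scale (SE, adjusted p = 0.0161 by edgeR). MMP14 and MMP2, metalloproteases with the same substrate, had log2 fold changes of -2.74 and -1.15 (adjusted p = 0.0405 and 0.0387). SDC3 and GPC6, heparan sulphate proteoglycans of the family that holds CXCL12 at the cell surface, did not pass, at -1.03 and -0.93 (adjusted p = 0.0796 and 0.180).

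Of 47 listed genes of signalling below the receptors, 7 were identified, 1 of which rose and 3 of which fell, beside 29.7% higher and 27.2% lower of all identified genes, with a median of -1.03. GNG3, a G protein gamma subunit of neurons, rose from 36.9 CPM to 103 ± 9.45 CPM (SD, n = 3), a log2 fold change of 1.48 (adjusted p = 0.0378). PIK3R1, the regulatory subunit of phosphoinositide 3-kinase, fell by 2.00 on the log2 scale (adjusted p = 0.0230), PTK2, the focal adhesion kinase, by 1.38 (adjusted p = 0.0258) and GNA13, a G protein alpha subunit, by 1.03 (adjusted p = 0.0471). The call of GNA13 was lost with no filter and with only the listed genes joined (adjusted p = 0.0514 and 0.0538). RGS10, which shortens G protein signals, stood at 1.93 (adjusted p = 0.0591), STAT3 at -1.10 (adjusted p = 0.0633) and USP14, which removes ubiquitin from CXCR4, at -1.03 (adjusted p = 0.0512), all without passing. These p-values are from the same edgeR fit.

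Of 16 transcription factors linked to CXCL12 or CXCR4, 2 were identified. NR2F1, a nuclear receptor of the developing nervous system, rose by 1.58 ± 0.13 on the log2 scale (SE, adjusted p = 0.0288 by edgeR), to 122 ± 4.76 CPM (SD, n = 3) from 40.8 CPM. ARNT, the partner of hypoxia-inducible factors, was at -1.18 (adjusted p = 0.0703) and did not pass.

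**Figure D5:**
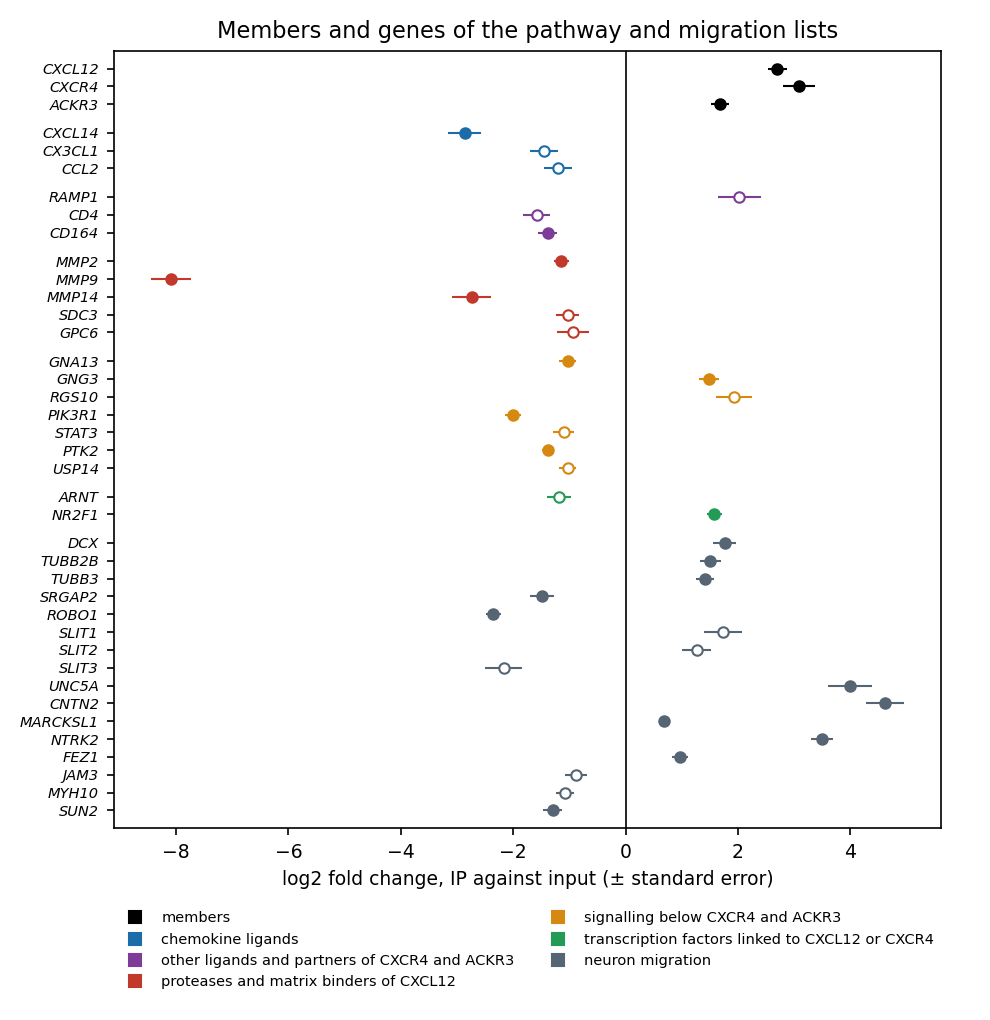
Log2 fold change, IP against input, with its standard error (x axis), for the members and the identified genes of the pathway and migration lists (y axis, grouped by colour). Filled circles passed an adjusted p of 0.05 and open circles did not. The members stand at 1.68 to 3.09, and the 5 proteases and matrix binders at -8.09 to -0.93.

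Of 49 listed genes of neuron migration outside the axis, 16 were identified. Of these 8 rose and 3 fell, beside 29.7% higher and 27.2% lower of all identified genes, and CNTN2, DCX and TUBB3 among them are counted again as young neuron markers below. Their median log2 fold change of 1.12 stood beside 0.80 over the identified genes. CNTN2, the adhesion protein TAG-1 of young granule neurons, rose by 4.61, UNC5A, a netrin receptor, by 3.98 and NTRK2, the BDNF receptor, by 3.49 on the log2 scale (adjusted p = 0.0234, 0.0318 and 0.0180 by edgeR). DCX and TUBB3, microtubule proteins of migrating and young neurons, rose by 1.76 and 1.41 (adjusted p = 0.0378 and 0.0363).

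ROBO1, a SLIT receptor, was at 54.1, 52.5 and 46.9 CPM across the IPs against 262 CPM for the input, and fell by 2.35 on the log2 scale (adjusted p = 0.0180 by edgeR). SUN2, which links the nucleus to the cytoskeleton, and SRGAP2, which acts below ROBO1 and has near-identical copies that can share its reads, had log2 fold changes of -1.30 and -1.49 (adjusted p = 0.0408 and 0.0477). The call of SRGAP2 was lost with only the listed genes joined (adjusted p = 0.0541). SLIT3, MYH10 and JAM3 stood at -2.17, -1.08 and -0.88 (adjusted p = 0.0519, 0.0518 and 0.102) and did not pass. SLIT1 and SLIT2 went the other way from SLIT3, at 1.73 and 1.26 (adjusted p = 0.0813 and 0.0913 by edgeR), and did not pass either.

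Markers of cell types that could hold these genes moved as well. The 8 identified of 12 granule cell progenitor and rhombic lip markers summed to 1155 to 1543 CPM per IP against 24.4 CPM for the input, most of it HES6, and WNT1, OLIG3, NHLH1 and INSM1 rose by 7.51, 6.82, 6.31 and 5.11 on the log2 scale (adjusted p = 0.0161, 0.0351, 0.0161 and 0.0161 by edgeR). The 8 identified of 10 young neuron markers summed to 1785 to 2094 CPM against 569.8 CPM. Of these markers 7 rose, beside 29.7% of all identified genes. TAGLN3 rose by 3.84, ELAVL4 by 2.66 and STMN2 by 1.39 on the log2 scale (adjusted p = 0.0161, 0.0371 and 0.0386 by edgeR).

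Meninges, the main source of CXCL12 around the cerebellum, share their collagens with other mesenchyme. Of 12 such markers 2 were identified, with a sum of 1032 to 1187 CPM per IP against 3053 CPM for the input. COL1A1 fell by 1.46 on the log2 scale (adjusted p = 0.0290 by edgeR), and DCN stood at -1.42 (adjusted p = 0.0709). The part of such cells in the level of CXCL12 was not tested.

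Endothelium and blood cells also use the axis. CLDN5, the single endothelial marker identified of 10, was at 12.6 to 29.1 CPM per IP against 0.618 CPM for the input, and rose by 5.12 on the log2 scale (adjusted p = 0.0494 by edgeR). Its call was lost with median-ratio scaling, no filter and only the listed genes joined (adjusted p = 0.0507, 0.0513 and 0.0557). AIF1, the single marker identified of 7 for microglia and blood cells, was at 11.9 to 18.1 CPM against 3.48 CPM and did not pass (adjusted p = 0.0843). No marker of Cajal-Retzius cells (6 listed) or neural crest (5 listed) was identified. Identification required reads in every library, so a marker without reads in some library could not be identified. The part of these cells in the levels of the members was not tested.

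The genes whose pattern over the 4 libraries was most like each member were found by the Euclidean distance of log2 CPM after the mean of each gene was subtracted, among 1658 identified genes. For CXCL12 these were GALNT14, a glycosyltransferase (distance 0.106), ZBTB16, a zinc finger repressor of progenitors (0.122), and PMEL, a pigment cell protein (0.162). For CXCR4 they were PMEL (0.0960), ELAVL3, an RNA-binding protein of neurons (0.105), and IAH1 (0.153). For ACKR3 they were SNAP25, of the synaptic vesicle fusion complex (0.0463), EPOR, the erythropoietin receptor (0.0601), and C2orf74 (0.0956).

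That these neighbours rose with their member follows from their selection on the same 4 libraries. The log2 fold changes were not always alike. In the distance, the added 0.5 lowers the difference for a gene of low CPM, such as ELAVL3 at 0.692 CPM in the input. GALNT14 was at 15.2, 15.7 and 15.0 CPM in IP replicates 1, 2 and 3 and at 1.90 CPM in the input. ZBTB16 and PMEL had log2 fold changes of 2.87 and 2.85, ELAVL3 and IAH1 of 3.72 and 2.86, and SNAP25, EPOR and C2orf74 of 1.66, 1.72 and 1.69. Among the members, CXCR4 was the 13th nearest gene to CXCL12 (distance 0.246) and CXCL12 the 14th nearest to CXCR4, whereas ACKR3 was the 224th nearest to CXCL12 and the 259th nearest to CXCR4. With 4 libraries, 1 of which is the input, these distances mostly reflect the difference between IP and input.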

How the data were processed

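TRAP-seq libraries, 3 IP and 1 input, were prepared with SMART-Seq v4 and Nextera XT and read as single reads of 75 bases. The authors quantified the reads with Salmon 0.8.2 on hg19 UCSC transcripts, and the deposited values are estimated counts and TPM for 69548 transcripts per library, without gene names. The submitters' notes also name bcl2fastq and DESeq2 1.20.0.

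Transcripts were tied to genes by position, for which GENCODE v44lift37 transcripts of equal length gave 6621 anchors. They also had to match the study's table in mean count within 2% and in log2 fold change within 1e-05. The log2 fold change was used as a key, since the mean count alone was not specific. The mean count of CXCL12 differed from that of the study by 1.46%, against 0.026% for CXCR4 and 0.0012% for ACKR3. From the 19968 genes listed by the study 17970 were not analysed here, and 1659 were joined, 464 from 1 transcript. The study's own test had called every joined gene. The match to its log2 fold change, with the tagged library as input, largely fixes the direction and size of each joined gene. These values therefore repeat that table and do not test it. Members and lists were chosen with earlier results of these data known. Named genes were the members, ATOH1, up to 6 genes of smallest p per list with those against the list's majority, and the 3 genes nearest to each member. STAT3, USP14, SLIT1 and SLIT2 fall outside this rule and were named after their values were seen. They are not among the genes named under the other settings below. A further 2 listed genes are not reported here and are left out of the list counts.

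Counts were summed per joined gene, rounded, filtered (minimum count 10), scaled by TMM and tested with edgeR 4.0.16 (R 4.3.3) and Benjamini-Hochberg adjustment at 0.05 over 43760 genes and transcripts. Standard errors are the log2 fold change over the root of the F statistic. Alternatives used DESeq2 1.42.0 and limma 3.58.1. The fit was tested on simulated data. The pattern distance used log2(CPM + 0.5). Promoter sequences came from RefSeq and coordinates of genes from GENCODE.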

Additional observations from a re-analysis of the deposited data

How the results depend on the processing

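No paired analysis was possible because the IP and input libraries share no replicate numbers that mark a pair, and there is 1 input library. The members kept their direction and passed the threshold with median-ratio scaling, DESeq2, no filter, a filter of 50 counts in 2 libraries, a transcript length offset and only the listed genes joined, with log2 fold changes of 2.66 to 2.91 for CXCL12, 3.05 to 3.09 for CXCR4 and 1.64 to 1.68 for ACKR3. With limma-voom they stood at 2.70, 3.08 and 1.68 and no longer passed (adjusted p = 0.0686, 0.0693 and 0.0686). When 1 IP library was left out, the log2 fold changes ran from 2.63 to 2.74 for CXCL12, 2.99 to 3.15 for CXCR4 and 1.64 to 1.73 for ACKR3, and the counts of calls were 0 to 0 in each direction, for all features and for the listed genes. At an unadjusted p under 0.05 the test then held 3564 to 4263 higher and 3125 to 3670 lower. In the limma-voom fit 0 genes and transcripts were called, while 3786 were higher and 6403 lower with an unadjusted p below 0.05. DESeq2 called 5820 higher and 4035 lower, and 24 listed genes lower. The filter of 50 counts called 1864 higher and 1149 lower, and 20 listed genes lower, where fewer genes were tested. As reported, 1021 were higher and 656 lower, of which 22 and 12 were listed genes. The cause of the differences between tools was not tested.

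With the input of the labels, 0 were called (with an unadjusted p below 0.05, 1031 higher and 229 lower), and CXCL12, CXCR4 and ACKR3 turned to -0.37, -0.48 and -0.24. Of the other named genes, those below 0 on the log2 scale were ATOH1 -0.17, C2orf74 -0.17, CLDN5 -1.28, CNTN2 -0.84, DCX -0.077, ELAVL3 -0.56, ELAVL4 -0.064, EPOR -0.24, GALNT14 -0.49, GNG3 -0.46, HES6 -1.06, IAH1 -0.59, INSM1 -0.51, NHLH1 -0.79, NR2F1 -0.42, NTRK2 -0.66, PMEL -0.48, RAMP1 -0.77, RGS10 -0.36, SNAP25 -0.29, STMN2 -0.097, TAGLN3 -0.60, TUBB3 -0.12, UNC5A -0.96, WNT1 -0.37, ZBTB16 -0.46. Those above 0 were ARNT 0.82, CCL2 0.75, CD164 0.89, CD4 0.71, COL1A1 0.63, CX3CL1 0.64, CXCL14 1.60, DCN 1.02, GNA13 0.51, GPC6 0.89, JAM3 0.21, MMP14 1.21, MMP2 0.69, MMP9 6.05, MYH10 0.43, PIK3R1 1.13, PTK2 0.61, ROBO1 1.15, SDC3 0.51, SLIT3 0.61, SRGAP2 0.45, SUN2 0.37. All of these had turned, while OLIG3 at 0.31 and AIF1 at 0.031 kept their direction. None passed the threshold. The calls of CLDN5, ELAVL3, GNA13 and SRGAP2 were also lost with only the listed genes joined (adjusted p = 0.0557, 0.0539, 0.0538 and 0.0541) and, except that of SRGAP2, with no filter (0.0513, 0.0534 and 0.0514), and that of CLDN5 with median-ratio scaling (0.0507). Calls were also gained among the named genes. With DESeq2 these were the 13 genes AIF1, ARNT, CCL2, CD4, CX3CL1, DCN, GPC6, JAM3, MYH10, RAMP1, RGS10, SDC3 and SLIT3. The filter of 50 counts gained 9 of them, all but AIF1, CCL2, GPC6 and JAM3. Median-ratio scaling gained CD4 and MYH10 (adjusted p = 0.0498 and 0.0472 by edgeR). The transcript length offset gained MYH10 and SLIT3 (adjusted p = 0.0215 and 0.0464 by edgeR). By reads instead of TPM, the share of uc021ppm.1 in CXCL12 was 21.8% in the IPs and 3.95% in the input. That of uc031put.1 was 40.1% and 36.9%, against 23.9% and 25.4% by TPM. The ratio of uc001jbf.4, 1.90, was 1.17 to 2.36 when 1 IP was left out, an alternative chosen after seeing the data.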
